A study of Mus musculus with 10 samples.

Results

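The hypoxia-inducible factor (HIF) subunits and the enzymes that sense oxygen for them were followed in the epididymal white adipose tissue (eWAT) of mice injected with the iron chelator desferrioxamine (DFO). The members were every non-control probe of the array whose gene name was Hif1a, Epas1, Hif3a, Arnt, Vhl, Egln1, Egln2, Egln3 or Hif1an. That gave 18 of 55681 probes, for 9 of 34797 gene names.

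The samples came from 10 wildtype male mice, C57BL/6JOlaHsd in the protocol and C57BL/6J in the strain field, aged 9 weeks when they entered the study. They ate a purified low-fat diet for 3 weeks and a high-fat diet for 12 weeks at 29 degrees C, received 100 mg DFO per kg body weight daily for 5 days, and were killed on day 6 after 2 hours without food. RNA of each mouse, labelled with Cy5, was hybridised to a 2-colour array against a Cy3-labelled pool of all samples of the wider study, its control group included. The labels named the 10 samples as replicates of 1 group. Arrays of untreated mice were not analysed here, so each value is a mouse relative to the pool, and a difference between DFO and control cannot be read from it. The pool held RNA of the DFO mice too.

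HIF is a dimer of an oxygen-regulated alpha subunit, HIF-1 alpha (Hif1a), HIF-2 alpha (Epas1) or HIF-3 alpha (Hif3a), and the constant partner ARNT. In the presence of oxygen and iron, the prolyl hydroxylases PHD2 (Egln1), PHD1 (Egln2) and PHD3 (Egln3) mark the alpha subunit, the ubiquitin ligase subunit pVHL binds the mark and the subunit is degraded, while FIH (Hif1an) hydroxylates an asparagine and hinders binding of the coactivators p300 and CBP. This control acts on protein, whereas the arrays measured RNA. In fat, HIF-1 alpha is studied for its part in the response of the growing tissue to low oxygen, and Epas1 is also a gene of the endothelium.

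No probe of the 10 arrays was saturated. Median Cy5 signals lay between 54.8 and 81.3 over local backgrounds of 32 to 37. The first principal component of the log2 ratios held 75.1% of the variance of 27716 probes between mice and placed mice 4, 5, 6 and 7 apart from the others. The widest gap in its scores was 0.513 of their range. Of the 8 adipocyte markers, all 8 were well above background in all 10 mice. The mean log2 ratio of the adipocyte list was -2.41, -2.18, -1.91 and -1.35 in mice 7, 4, 5 and 6 and lay between -0.15 and 0.65 in the rest. The summed Cy5 signal of that list ran from 164500 to 897100. The macrophage list had its 4 highest means, 0.51 to 0.72, in the same 4 mice, against -0.65 to 0.01 in the rest, although 1 of its 8 markers, Cd163, was lowest there (-0.28 to -0.11 against 0.15 to 0.60). The mesothelium list was also lowest in those mice, at -1.31 to -0.84 against -0.57 to 0.53, and so was the erythroid and blood list, at -1.63 to -0.99 against -0.66 to 0.39. Not every marker of these lists followed. For Upk3b, Lrrn4 and Wt1 of the mesothelium list mouse 2 was among the lowest 4. Slc4a1 of the blood list read 0.04 and 0.09 in mice 4 and 6. Of the 7 sperm and epididymis markers, 2 passed, and their mean stood highest in mouse 2, at -1.08 against -3.18 to -2.43. In a bulk tissue, fewer cells of a type and less RNA per cell cannot be told apart.

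The probes were 60 bases long, and their place decided which end of a transcript was read. They are named here by the base of the transcript at which each begins, as the array annotation gave it. Bases 31 to 60 are shown for the genes whose probes are compared in the text, on the strand of the transcript, with the polyadenylation signals AATAAA and ATTAAA and a run of 3 copies of CCCT in capitals, searched on the printed strand only.
Epas1 3188: ctttattatccatgttttaaaaatacatag
Epas1 3279: cctCCCTCCCTCCCTtgaattacttctaat
Epas1 5216: actgcattgtcaaattcctactgacgacat
Arnt 2641: tatagaagaaATTAAAtgaatttcccaggc
Arnt 4288: aataatgacatgtagcaaagattttaaaac
Egln2 1704: gaggagcaacaaggagagacctctgctgcc
Egln2 2046: ccaagaAATAAAagtttacctcagagctgc
Egln3 1332: tcgcaaagaAATAAAgttggtgacagatgc
Egln3 1631: ttcttacttggggaacctaattatccagag
Vhl 2668: tttagtacAATAAAcggtgctaattgaagg

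In mm9, the build of the array annotation, the Epas1 probes lay at chr17:87230587-87230646, chr17:87230678-87230737 and chr17:87232615-87232674. The Arnt probes lay at chr3:95299434-95299493 and chr3:95301081-95301140, the Egln2 probes at chr7:27944020-27944079 and chr7:27943678-27943737, and the Egln3 probes at chr12:55281252-55281311 and chr12:55280953-55281012. Vhl was read at chr6:113581566-113581625. Within each of these genes the distance between probes on the genome equalled that on the transcript (91 and 1937 bases for Epas1, 1647 for Arnt, 342 for Egln2 and 299 for Egln3), so no intron lay between them in that annotation. Exon and untranslated-region borders of mm9 were not used here. A signal of either form was held by 4 of the 18 member probes, against 13.7% of all probes. The run of 3 copies of CCCT, chosen after the values of its probe were seen, occurred in 2 of 55681 probes.

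The 250 bases before the RefSeq start (build GRCm38.p6) were searched on both strands for ACGTG, the core to which HIF dimers bind. The promoter table held 9 windows for 8 of the genes. The core was in windows of Hif1a, Egln1, Egln2 and Egln3, or 4 of 8 genes. By window it was in 4 of the 9 (44.4%), against 16.6% of all 32851 windows. The stretches of 60 bases around the core nearest the start are shown for the prolyl hydroxylases, since Egln1 and Egln3 are known HIF targets, at chr8:124949291-124949350, chr7:27166819-27166878 and chr12:54204065-54204124, each on the minus strand with the core in capitals.
Egln1: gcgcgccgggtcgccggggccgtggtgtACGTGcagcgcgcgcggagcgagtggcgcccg
Egln2: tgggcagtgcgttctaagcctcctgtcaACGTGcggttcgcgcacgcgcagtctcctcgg
Egln3: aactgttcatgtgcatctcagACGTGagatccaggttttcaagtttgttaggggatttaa

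The core began 68, 48 and 229 bases before the start in Egln1, Egln2 and Egln3. In Hif1a it was found at 135, 134 and 70 bases, the first 2 being the strands of 1 overlapping CACGTG. A match of letters is not a measured binding site.

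Epas1 varied most between these mice among the bright members, and its 3 probes did not read alike. At base 5216 the Cy5 signal ran from 12670 to 48910 with a median of 24190. The log2 ratio was -1.25, -1.11, -1.09 and -0.92 in mice 7, 4, 5 and 6, and between -0.14 and 0.23 in the other 6. The 4 values therefore did not overlap the others, and they came from the mice with the lowest adipocyte list means. Over all mice the mean was -0.40 ± 0.61 (SD, n = 10). With array medians alone in place of the intensity-dependent loess curve, the mean became 0.29, mouse 3 (-0.32) was among the lowest 4, and mouse 6 (0.05) stood next.

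The Epas1 probe at base 3188 followed the same mice, with log2 ratios of -0.67, -0.48, -0.43 and -0.37 in mice 7, 5, 4 and 6 and of -0.05 to 0.26 in the rest. Its differences between mice were smaller than those at 5216, which read 0.54 to 0.68 lower than 3188 in those 4 mice and from 0.15 lower to 0.07 higher in the rest. The probe at base 3279 begins 91 bases downstream of 3188 and carries the CCCT repeat, and it read otherwise. Its log2 ratio lay between -0.04 and 0.48 in 9 mice, mice 4, 5 and 7 included. Mouse 6 stood apart at -0.49, and on that array the spot was dim in both dyes, with a Cy5 signal of 528 against 1131 to 2230 elsewhere and a Cy3 signal of 458 against 896 to 1106. The low ratios of mice 4, 5 and 7 at 5216 were therefore not seen at this probe, which read 1.12, 1.05 and 1.33 higher there.

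Hif1a was steady beside Epas1. At base 3512 (chr12:75047269-75047329) the Cy5 signal lay between 478 and 1644. The log2 ratio ran from -0.54 in mouse 7 to -0.07 in mouse 1 with a median of -0.28, so all 10 mice read below the pool (mean -0.27 ± 0.13, SD, n = 10). The sign depended on the scaling, since with median centring the mean was 0.23 and only mouse 3 (-0.55) was below 0. The scanner software's own log ratio, turned to the log2 scale, gave a mean of -0.30. The second Hif1a probe, at base 1558 of another transcript (chr12:75033965-75034024), was not well above background on any array in either dye.

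Hif3a, whose splice forms include an inhibitor of the other alpha subunits, was dim and spread widely. At base 6374 (chr7:17616855-17616914) the Cy5 signal ran from 56.2 to 282 with a median of 96.9, and mice 4 and 6 were not well above background. The log2 ratio was highest in mice 9, 8 and 2, at 0.86, 0.59 and 0.47, and lowest in mice 4, 6, 7 and 5, at -0.62, -0.38, -0.34 and -0.15. The same 4 mice as for Epas1 were the lowest, though the gap to mouse 1 (-0.03) was small. The scanner's log2 ratios were -1.80, -1.25, -0.77 and -0.46 in mice 4, 6, 7 and 5 and 1.61 in mouse 9. The probes at bases 534 and 2418 were each well above background in Cy5 on 3 arrays and in Cy3 on 0, and no spread is given for them.

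**Figure D1:**
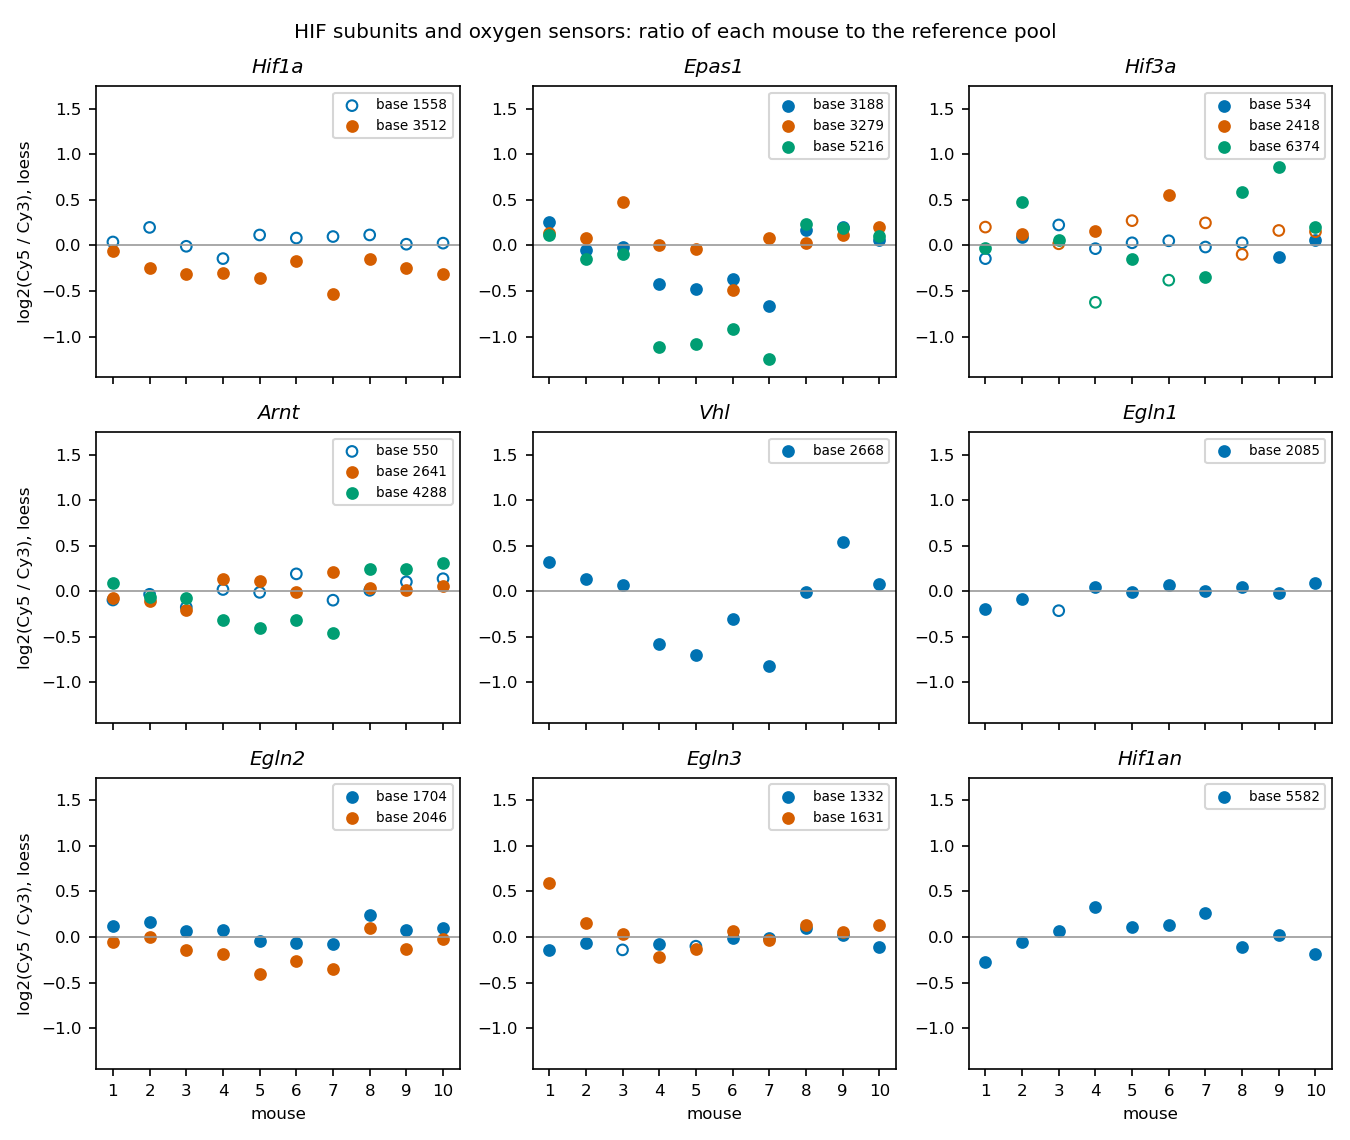
Log2 ratio of Cy5 (mouse) to Cy3 (reference pool) after loess on the y axis, by mouse 1 to 10 on the x axis, in a panel for each gene with a colour for each probe, named by its first base on the transcript. Open circles were not well above background in Cy5. Epas1 at 5216, Arnt at 4288 and Vhl were lowest in mice 4, 5, 6 and 7, while Hif1a at 3512 lay below 0 in all 10 mice, which with median centring held for mouse 3 only.

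Arnt, the partner that all alpha subunits share, was read by 2 probes that differed in mice 4 to 7. At base 4288 the Cy5 signal lay between 579 and 2054. The log2 ratio there was lowest in mice 7, 5, 6 and 4, at -0.46, -0.40, -0.31 and -0.31, and highest in mouse 10, at 0.31 (mean -0.07 ± 0.29, SD, n = 10). With median centring mouse 3 (-0.32) was the lowest and mice 5, 4, 7 and 6 came next. At base 2641, which holds ATTAAA and lies 1647 bases upstream, the 3 highest values were those of mice 7, 4 and 5, at 0.21, 0.14 and 0.11, and the lowest that of mouse 3, at -0.21 (mean 0.02 ± 0.12, SD, n = 10). The upstream probe was dim, with Cy5 signals of 85.5 to 232. The scanner's log2 ratios there were 0.36, 0.40 and 0.15 in mice 7, 4 and 5. The probe at 4288 read 0.05 to 0.25 higher than that at 2641 in mice 1, 2, 3, 8, 9 and 10, and 0.67, 0.51, 0.45 and 0.31 lower in mice 7, 5, 4 and 6. The disagreement between the probes thus lay in those 4 mice, and over the other 6 both probes placed mice 3, 2 and 1 lowest and mouse 10 highest. The third probe, at base 550 of another transcript, was not well above background on any array.

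Vhl, the substrate-binding subunit of the ligase that degrades hydroxylated alpha subunits, had 1 probe, with Cy5 signals of 1019 to 3596. The log2 ratio was -0.82, -0.70, -0.58 and -0.31 in mice 7, 5, 4 and 6 and reached 0.54 in mouse 9 and 0.32 in mouse 1. The lowest 4 mice were again those with the lowest Epas1 ratios, and they did not overlap the others, the next being mouse 8, near 0. The mean was -0.13 ± 0.45 (SD, n = 10). With median centring it was 0.41, mouse 3 (-0.18) stood second lowest after mouse 5 (-0.23), and the 4 mice were no longer apart. On slide 2 mouse 4 lay 0.65 below mouse 3, and on slide 4 mouse 8 lay 0.81 above mouse 7, so the difference was also seen between arrays of 1 slide.

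Among the prolyl hydroxylases the SD of the log2 ratio was 0.10 to 0.16 for the probes of Egln1 and Egln2. It was 0.22 for Egln3 at 1631 and 0.08 at 1332, which was not tested for variance. On the scanner's scale the SD was 0.36 for Egln1, 0.10 and 0.14 for Egln2, and 0.47 and 0.54 for Egln3 at 1631 and 1332. Egln1, held to be the main oxygen sensor of the 3, had a dim probe with Cy5 signals of 59.5 to 112 and log2 ratios from -0.21 in mouse 3 to 0.09 in mouse 10. The array annotation gave it a span of only 13 bases, chr8:127432487-127432499. Mice 3 and 1 were lowest, and mice 4 to 7 lay within 0.1 of 0. Mouse 3 was not well above background in Cy5, so its value of -0.21, or -1.07 on the scanner's scale, is uncertain, and mouse 1 stood at -0.53 on that scale. The mean was -0.03 ± 0.11 (SD, n = 10), and -0.23 on that scale.

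Egln2 was read by probes 342 bases apart, and both gave small differences. At base 1704 the log2 ratio ran from -0.08 in mouse 7 to 0.24 in mouse 8 (mean 0.06 ± 0.10, SD, n = 10). At base 2046, the end with AATAAA, it ran from -0.40 in mouse 5 to 0.10 in mouse 8 (mean -0.15 ± 0.16, SD, n = 10), with mice 5, 7, 6 and 4 lowest. Mouse 8 was highest at both. The downstream probe read lower in every mouse, by 0.12 to 0.35 on the log2 ratio scale.

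Egln3, which hypoxia induces in many cell types, was singular in mouse 1. At base 1631 the log2 ratio was 0.59 in that mouse, with a Cy5 signal of 168, and lay between -0.22 and 0.15 in the other 9 (signals of 66.7 to 132). The scanner's log2 ratio was 1.26 in mouse 1 and -0.47 to 0.31 elsewhere. The probe 299 bases upstream, at base 1332, did not share this, at -0.14 in mouse 1 within a range of -0.14 to 0.10, though it was well above background in Cy5 on 8 arrays and in Cy3 on 1.

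Hif1an, the asparaginyl hydroxylase FIH, ran the other way from Epas1 and Vhl. Its probe at base 5582 (chr19:44650157-44650216) was dim, with Cy5 signals of 89.2 to 177. The log2 ratio was highest in mice 4, 7, 6 and 5, at 0.33, 0.27, 0.13 and 0.11, and lowest in mice 1 and 10, at -0.27 and -0.19 (mean 0.03 ± 0.19, SD, n = 10). Mouse 3, at 0.06, stood next to the 4, so they led the order without a wide gap. With median centring mice 7, 4 and 6 stayed highest, but mouse 9 (0.31) stood above mouse 5 (0.28). The scanner's ratios were 0.62, 0.55, 0.29 and 0.28 in mice 4, 7, 6 and 5.

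The dim probes were read with caution as to size. A constant of 50 added to each background-corrected signal draws the log2 ratio of a dim probe toward 0 and alters that of a bright probe little. The scanner's ratio also differed in background subtraction and dye normalization, and the part of each was not tested. The SD of the log2 ratio over the mice was 0.47 for Hif3a at 6374 against 1.11 on the scanner's scale, 0.22 against 0.47 for Egln3 at 1631, and 0.19 against 0.38 for Hif1an. It was 0.11 against 0.36 for Egln1 and 0.12 against 0.26 for Arnt at 2641. For Epas1 at 5216 it was 0.61 against 0.63 and for Vhl 0.45 against 0.46.

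**Figure D2:**
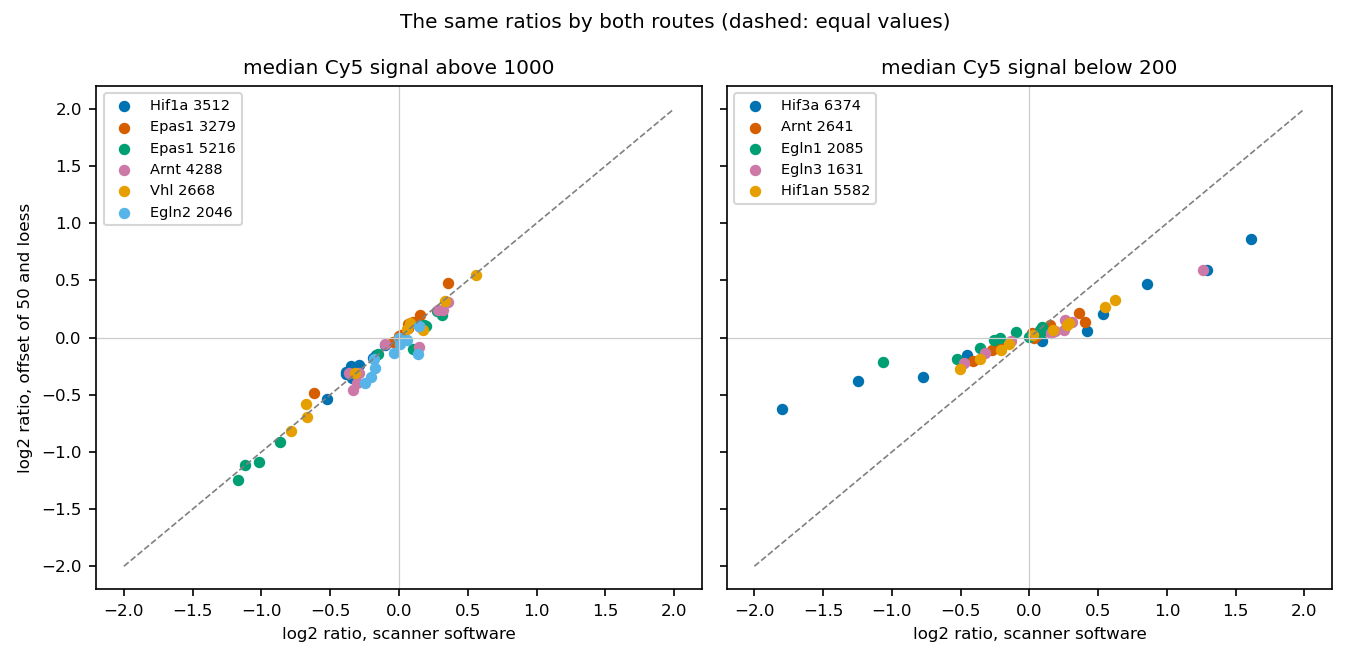
Log2 ratio after the offset of 50 and loess (y axis) against the scanner software's own log2 ratio (x axis), a point for each mouse and a colour for each probe, with the 6 probes of a median Cy5 signal above 1000 on the left and the 5 below 200 on the right. The dashed line marks equal values. The bright probes lay near it, and the outermost Hif3a points read -1.80 and 1.61 by the scanner and -0.62 and 0.86 after the offset and loess.

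The spread of the members between samples was tested by setting the variance of Cy5, where each array held the RNA of another mouse, against that of Cy3, where all arrays held the same pool (Pitman-Morgan test on log2 values, Benjamini-Hochberg adjustment over 25049 probes well above background in both dyes on at least 5 arrays). The dyes were not swapped, so a difference between Cy5 and Cy3 also holds that of the dyes. Cy5 carried the preparation of each sample as well as the mouse. Dye, preparation and mouse cannot be told apart. Of the 18 member probes 13 could be tested, all 9 genes being represented. A probe was called where the adjusted p was under 0.05. The Cy5 variance was called the larger for 11 of the 13, at a background of 59.6% of all probes. It was called the smaller for 0 of the 13, at a background of 0.164%. Over the brightest probe of each gene it was called the larger for 7 of 9. Hif1a and Egln1 were not called, though their Cy5 variance was also above that of Cy3. The median ratio of the SDs was 2.88 over the 13 probes and 2.48 over all probes tested. The count rested on the scaling between arrays: without it 2 of the 13 passed and with median centring 4, when 18.7% and 37.9% of all probes did. With the slide means taken out 7 passed, against 40.8% of all probes.

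By gene, the ratio of Cy5 to Cy3 variance was 50.3 for Vhl (adjusted p = 5.68e-05), 46.0 for Arnt at 4288 (adjusted p = 3.35e-05), 44.0 for Epas1 at 5216 (adjusted p = 3.18e-05) and 28.7 for Hif3a (adjusted p = 0.000234). These 4 probes all had mice 4 to 7 as their lowest after loess, and with median centring Hif3a alone did. Without scaling between arrays Vhl, Arnt at 4288 and Epas1 at 5216 lost their calls (adjusted p = 0.166, 0.176 and 0.131). Among the members only Hif3a and Egln3 at 1631 then kept a call (adjusted p = 0.0039 and 0.0169). Arnt at 4288 also lost it with median centring (adjusted p = 0.0549). The ratio was 12.1 for Epas1 at 3188 and 2.54 at 3279 (adjusted p = 0.00366 and 0.00135), and without mouse 6 the log2 of the latter ratio went from 1.34 to 2.97. Egln2 had ratios of 5.09 and 10.6 (adjusted p = 0.0101 and 0.00176). Both Egln2 probes and Epas1 at 3188 and 3279 lost their calls with median centring (adjusted p of 0.0913 to 0.579). They also lost them with slide means taken out (adjusted p of 0.0691 to 0.102). Epas1 at 3279 was not called by an F test either (adjusted p = 0.243). Egln3 had a ratio of 8.32 (adjusted p = 0.00684), and its call was lost without mouse 1 (adjusted p = 0.103). Hif1an had 7.77 (adjusted p = 0.0169) and lost its call without mouse 1 or mouse 4 (adjusted p = 0.0792 and 0.0610). The call was also lost with median centring, median spot signals, slide means taken out and no scaling between arrays (adjusted p of 0.0904 to 0.416). Arnt at 2641 had 3.15 (adjusted p = 0.0471) and lost it without any of mice 1, 2, 3, 4, 5, 7, 9 and 10 (adjusted p of 0.0564 to 0.149). Hif1a at 3512 had 3.74 (adjusted p = 0.104) and Egln1 1.44 (adjusted p = 0.646), and neither passed.

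**Figure D3:**
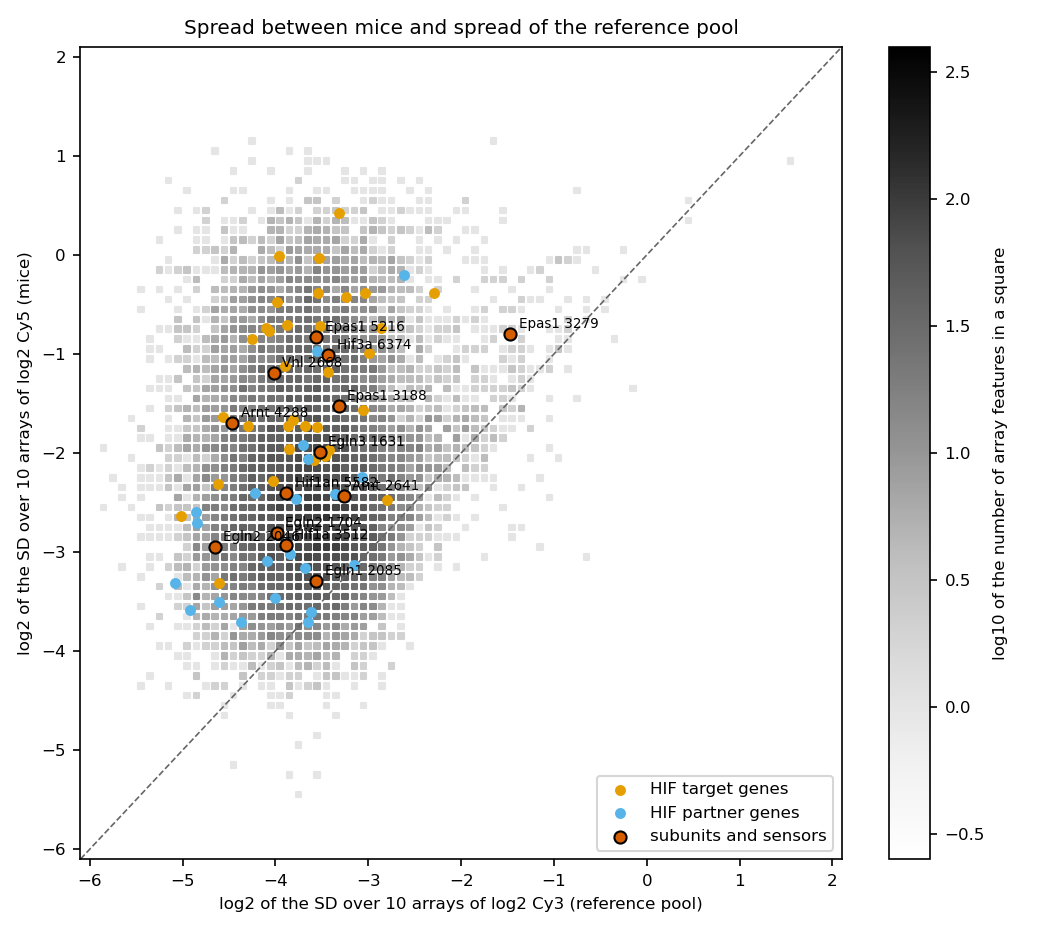
Log2 of the SD over 10 arrays of the log2 Cy5 signal (mice, y axis) against that of the log2 Cy3 signal (reference pool, x axis), grey squares being darker where more of the 25049 tested probes fall and the dashed line marking equal spread. Member probes are red and named, target genes orange and partner genes blue. Vhl, Arnt at 4288, Epas1 at 5216 and Hif3a lie farthest above the line among the members, and Epas1 at 3279 lies to the right, where the pool signal itself varied.

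The genes that work with HIF were put to the same test, each counted by its brightest probe. Of 24 partner genes (coactivators, ligase subunits, chaperones and other regulators) 22 were tested. The Cy5 variance was called the larger for 11 of them, below the share of 59.6% over all probes. It was called the smaller for none. The median SD ratio was 2.08 against 2.48. Arntl, a clock factor related to ARNT, had the largest excess, a variance ratio of 35.6 (adjusted p = 7.85e-05), with log2 ratios from -0.70 in mouse 1 to 0.55 in mouse 7 around a median of -0.51. Cited4, a CBP and p300 binding protein, had 28.1 (adjusted p = 1.65e-05), and its spread lay mainly in mouse 2, at 1.52 against -1.14 to -0.39 in the others. In that mouse the sperm and epididymis list was also highest, and its part in the value was not tested. Rbx1 and Tceb1, subunits of the pVHL ligase, had 23.1 and 19.4 (adjusted p = 0.000341 and 0.000513). Rbx1 ran from 0.03 in mouse 2 to 0.41 in mouse 6, with mice 4 to 7 as the highest 4, while Tceb1 was lowest in mice 2 and 4, at -0.39 and -0.38. Gnb2l1, encoding RACK1, which competes with HSP90 for HIF-1 alpha, had 12.5 (adjusted p = 0.00397) and stood at 0.40 to 0.48 in mice 5, 6 and 7.

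HIF target genes were counted as well, also by the brightest probe of each gene. Of 35 genes 33 were tested. The Cy5 variance was called the larger for 32, or 97.0%, beside 59.6% of all probes. The median SD ratio was 4.94, beside 2.48 for all probes tested. For the members it was 3.25 by the brightest probe of each gene and 2.88 over the 13 probes. These lists were chosen with results known, and the difference from all probes was not tested. The values for all probes counted every tested probe, not only the brightest of each gene. Narf was not called (variance ratio 1.56, adjusted p = 0.474). The largest was Pfkfb3, a glycolytic regulator, with a variance ratio of 241 (adjusted p = 5.72e-08), from -2.03 in mouse 7 to 0.77 in mouse 9. Hmox1, the haem-degrading enzyme, followed at 179 (adjusted p = 9.07e-08), with 1.47, 1.14, 0.80 and 0.72 in mice 4, 7, 5 and 6 and -1.74 to -0.93 in the rest.

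The target genes did not share 1 direction. Pfkfb4, a related enzyme, had a variance ratio of 129 (adjusted p = 5.51e-07) and was highest in mice 4, 7, 5 and 6, at 0.64 to 0.99. Bnip3, a mitophagy receptor, had 128 (adjusted p = 3.94e-06) and was lowest in those mice, at -1.72 to -0.75. Ndrg1 had 112 (adjusted p = 3.35e-06) and ran from -1.13 in mouse 7 to 0.67 in mouse 2. In all, 21 of the 33 tested targets (63.6%) placed mice 4 to 7 together at an end of the order, as did 7 of the 13 member probes (53.8%), 7 of the 22 partners (31.8%) and 42.4% of all probes tested. Counted by the brightest probe, as the lists were, 6 of the 9 member genes (66.7%) did so. With median centring 13 targets (39.4%), 1 member probe (7.69%), 3 partners (13.6%) and 24.4% of all probes did. By the brightest probe it was then 1 of the 9 member genes (11.1%). Since the first component was computed from all probes, these shares are descriptions. Without scaling between arrays, 14 of the targets and 2 of the partners passed the variance test, and with median centring 25 and 3.

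**Figure D4:**
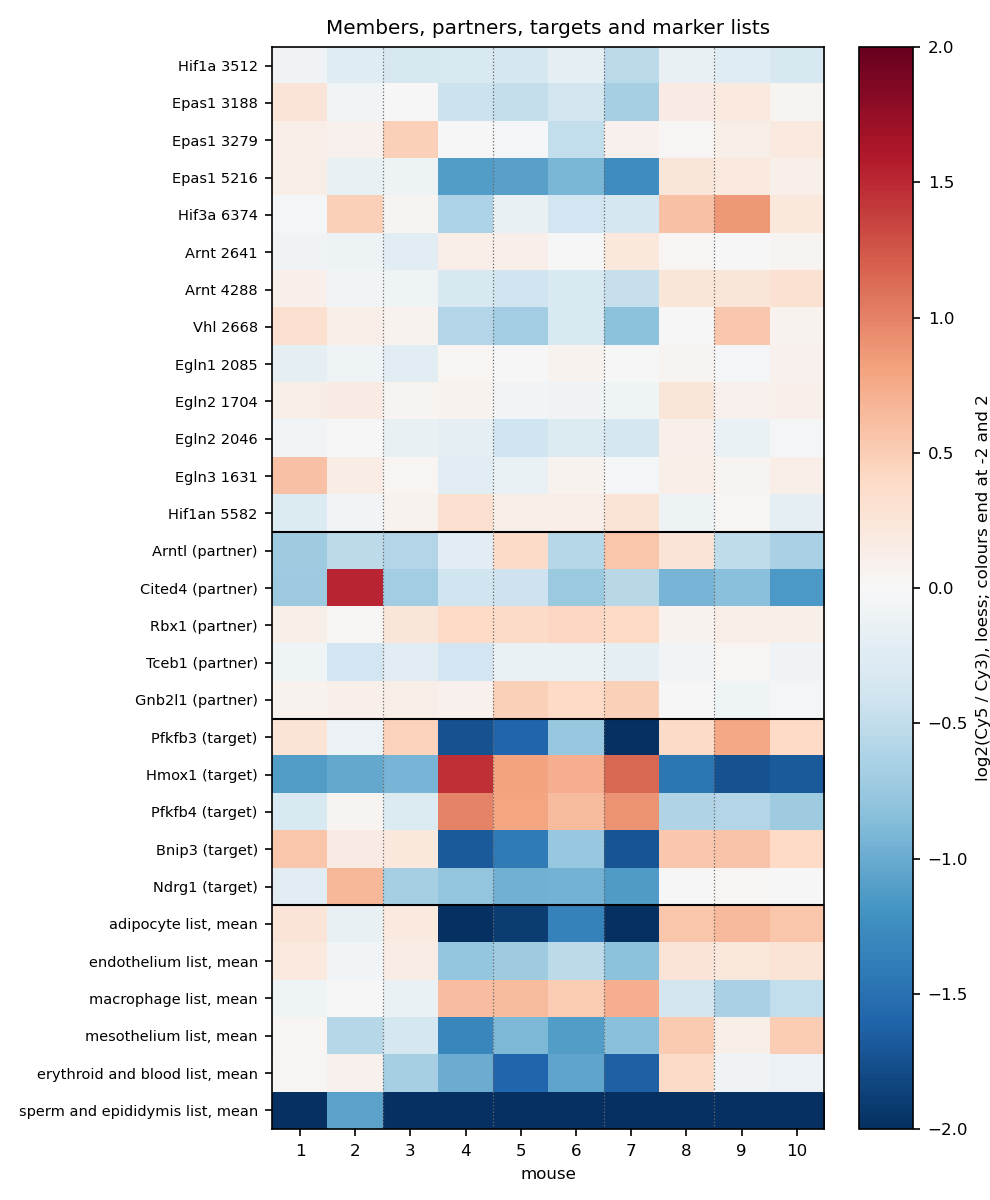
Log2 ratio of each mouse to the pool after loess (colour, ending at -2 and 2) for the 13 tested member probes, the 5 partner and 5 target genes with the largest excess of Cy5 variance, and the means of 6 marker lists, with a column for each mouse and dotted lines between slides. Epas1 at 5216, Vhl, Pfkfb3, Bnip3 and the adipocyte list are blue in mice 4 to 7, and Hmox1, Pfkfb4 and the macrophage list are red there.

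Relations between the members were computed over mice. Because mice 4 to 7 stood apart, 33 of the 36 pairs of member genes, each by its brightest probe, were computed over mice 1, 2, 3, 8, 9 and 10 alone, and 3 over all 10. None passed after adjustment for 36 pairs by Pearson's r or Spearman's rho (exact permutation tests for 6 mice and 100000 resamples for 10, two-sided). At an unadjusted p under 0.05 there were 3 pairs by r and 2 by rho. Egln3 and Hif1an had r = -0.82 (exact p = 0.0125, adjusted p = 0.450) and rho = -0.77 (exact p = 0.103, adjusted p = 0.989) over 6 mice, and r was -0.64 without the 2 mice farthest out. Epas1 and Arnt had r = 0.87 (exact p = 0.0403, adjusted p = 0.588) and rho = 0.54 (exact p = 0.297, adjusted p = 0.989), but r was 0.17 without mice 2 and 3 and so rested on them. Hif1a and Egln3 had r = 0.66 over 10 mice (permutation p = 0.0499, adjusted p = 0.588) and rho = 0.67 (permutation p = 0.0393, adjusted p = 0.707), with r = 0.52 without mice 1 and 7. Arnt and Egln1 had rho = 0.89 over 6 mice (exact p = 0.0333, adjusted p = 0.707) and r = 0.83 (exact p = 0.0653, adjusted p = 0.588), with r = 0.97 without mice 2 and 3. Over 6 mice the smallest exact p is 0.00139, which a single pair of 36 can bring only to an adjusted 0.05, so the design could hardly pass a pair. With median centring 6 pairs passed by r, but there 28 of the 36 were computed over all 10 mice, so the mice changed with the scaling.

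Each member was also set against the adipocyte, endothelium and macrophage lists within the 6 mice. None of the 27 relations passed after adjustment, and 4 had an unadjusted p under 0.05 by r and 2 by rho. Arnt had r = 0.90 with the adipocyte list (exact p = 0.0208, adjusted p = 0.141) and 0.80 with the endothelium list (exact p = 0.0139, adjusted p = 0.141), each with rho = 0.89 (exact p = 0.0333, adjusted p = 0.450). Without mice 2 and 3 these r values were 0.87 and 0.88. Epas1 had r = 0.89 and 0.82 with those lists (exact p = 0.0111 and 0.0167, adjusted p = 0.141 for both) and rho = 0.71 and 0.66 (exact p = 0.136 and 0.175, adjusted p = 0.653 for both). Without mice 2 and 3 they were 0.52 and 0.05, so they rested on those mice. Across all 10 mice the endothelium list, which ran from -0.82 in mouse 7 to 0.28 in mouse 10, was lowest in the mice with the lowest Epas1 ratios. Its marker Kdr did not follow, at 0.01 to 0.19 in mice 4 to 7 and -0.16 to 0.68 in the rest. The part of cell makeup in the members' values was not tested. By r, 4 relations passed with median centring, where 8 of the 27 were computed over all 10 mice, and 2 with the scanner's ratio, all over 6.

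After the first component was taken out, the genes most like each of the 3 most variable members over the 10 mice were, for Epas1, Tfpi2 (r = 0.97), Selp (0.95), Il1b (0.94), Yif1a (0.91) and Ccl25 (0.90). For Hif3a they were Megf9 (0.97), Ephb4, Cpd, Fam160a2 and Pick1 (0.94). For Vhl they were Eif3i (0.95), 1110059G10Rik, Gapdh, Prdx6 and Vta1 (0.89). These were the highest of 25049 probes over 10 arrays.

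The 10 arrays lay on 5 slides of 2. No probe passed a test for slide (limma moderated F, 27716 probes, 0 called, 1136 with an unadjusted p under 0.05), and the smallest adjusted p among the members was 0.697. Of the 5 slides, 2 held a mouse from each side of the divide. For Epas1 at 5216 mouse 4 lay 1.01 below mouse 3, and mouse 8 lay 1.48 above mouse 7. For Arnt at 4288 the same differences were 0.23 and 0.70, and for Hif3a they were 0.68 and 0.93. At Arnt 2641, in the opposite direction, mouse 4 lay 0.35 above mouse 3 and mouse 8 lay 0.17 below mouse 7.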

How the data were processed

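Epididymal fat RNA of 10 DFO mice was compared with a common pool on Agilent 8x60K arrays. Per the labels and file headers, the authors scanned and extracted spot intensities with Agilent Feature Extraction 10.7.3.1, and the deposited log10 ratio is red (mouse) over green (pool) after its background subtraction and dye normalization. The deposited table of normalized log2 values follows the Cy5 channel. Here, mean intensities were background-corrected (limma 3.58.1 normexp, offset 50), loess-normalized within arrays and Aquantile-scaled between arrays, control and outlier-flagged spots were left out, and a probe entered the variance test if well above background in both dyes on 5 arrays. The methods of these arrays beyond the labels are not given in the sources used here, so the tests are not the authors'. Named genes were all members, the 5 called partner and target genes with the largest variance ratio, and the 5 genes most like each of the 3 most variable members. The members, lists and tests were chosen with earlier results of these data known. P-values measure the spread between these samples, in the variance test together with any difference between the dyes, and the number of arrays limits precision. Alternatives were other background, dye, array and filter settings, an F test, slide means and leaving out each mouse. The variance, slide and correlation tests were checked on simulated data. The slide check planted large effects and the correlation check a perfect relation, so neither measured power at smaller effects. The variance check simulated log2 values without any normalization step, so it could not test the scaling between arrays on which the counts rested.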

Additional observations from a re-analysis of the deposited data

Results flagged for a closer look

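In a test for a value far from the others (gap to the nearest over the range, 10 mice, Dixon's critical value), 5 of 75 stood out, namely of 14 member probes above background, 55 partner and target genes and 6 marker list means, where chance marks about 1 in 20. Epas1 at base 3279 was lowest in mouse 6, with a gap of 0.470 of the range, on an array where the spot was dim in both dyes. Egln3 at base 1631 was highest in mouse 1 (0.541 of the range). Cited4 was highest in mouse 2 (0.719), as were the target gene Kdm3a (0.527), a histone demethylase, and the mean of the 2 readable sperm and epididymis markers (0.642). The cause of these values was not tested.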

How the results depend on the processing

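With median centring in place of loess, the Cy5 variance was called the larger for 4 of 13 member probes, 9498 of all probes and 3 partner genes. By r, 6 member pairs and 4 relations with marker lists passed there. Of the 36 pairs 28, and of the 27 relations 8, were then computed over 10 mice, against 3 and 0 with loess. The mean log2 ratios became 0.23 (Hif1a 3512) and 0.31, 0.57 and 0.29 (Epas1 3188, 3279 and 5216). They became 0.27 and 0.43 (Arnt 2641 and 4288) and 0.41 (Vhl). For Egln2 at 1704 and 2046 they became 0.53 and 0.45, and for Hif1an 0.22. Without scaling between arrays the counts were 2 member probes, 4684 probes, 2 partners and 14 targets. With slide means taken out they were 7 member probes and 6 partners. Probes called for the smaller Cy5 variance numbered 17 when all 10 arrays had to pass the filter, 544 without a filter and 24 by an F test. With the scanner's ratio the mean of Egln1 was -0.23 and 2 relations with lists passed. The log2 variance ratio of Egln1, which was not called, turned to -0.29 without background subtraction, -0.37 with median spot signals, -1.23 with slide means taken out and, when mice were left out in turn, ranged from -0.39 (without mouse 3) to 1.16. The cause of these shifts was not tested. Leaving out 1 mouse gave 8 to 11 member probes, 13411 to 14367 probes, 9 to 12 partners and 30 to 32 targets. Among the variance tests of single member probes 37 lost their call and 1 (Hif1a 3512, slide means taken out, 4.04) gained it, while 190 kept call and direction. Pairs were not recomputed where fewer than 6 mice remained, and r without the 2 farthest mice was given without a test. Dim probes (Hif3a, Egln1, Egln3, Hif1an, Arnt 2641) are limited by signal over background. The variance test paired both dyes of each array, while mice could not be paired between conditions because there was 1 group.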
